A study of Mus musculus with 12 samples.

Results

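The 10 imprinted growth genes described here are Peg3, Zim1, Plagl1, Ndn, Igf2, Grb10, Cdkn1c, Dlk1, Meg3 and H19, out of 54134 genes in the table of reads per gene. They were chosen by symbol, and Mest, the imprinted gene of fat expansion, was left out. RNA-seq of inguinal white adipose tissue (iWAT, the subcutaneous fat of the groin) compared 6 AAV-GFP with 6 AAV-Notum mice, all of them male C57BL/6J mice fed chow. Each mouse was 8 weeks old when 1e+12 genome copies of adeno-associated virus were injected into a tail vein, and tissue was taken 4 weeks later after a fast of 4 hours. The virus of the AAV-Notum group carried mouse Notum, a secreted enzyme that removes the lipid from Wnt proteins, and that of the AAV-GFP group carried green fluorescent protein. Both were driven by the thyroxine binding globulin promoter, which is active in the liver and not aimed at fat, and no engineered mutation is named for either group. The comparison asks how the fat's transcripts differed after hepatic Notum expression.

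Imprinted genes are transcribed mainly from the chromosome inherited from 1 parent, under DNA methylation marks set in the germ line. As a broad rule, genes active on the paternal chromosome promote growth before birth and genes active on the maternal chromosome restrain it, and many of them are high in fetal tissue and decline after birth. In fat, Dlk1 (preadipocyte factor 1) holds back the differentiation of precursors. The mice were inbred, so reads of the parental alleles cannot be told apart and each value is the sum of both.

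Total counts ran from 15266635 to 21618860 per AAV-GFP mouse and from 14711113 to 17838229 per AAV-Notum mouse, and RNA integrity numbers ran from 5.7 to 7.6 and from 6.9 to 7.4. Adipocyte markers, which define the labelled tissue, were detected in every mouse (8 of 8 tested, summed level 19901 to 46627 CPM, which are reads scaled to a common library size). Other cell types varied between mice: lymphoid markers summed to 14.0 CPM in AAV-GFP mouse S_2011 and 7.99 CPM in AAV-GFP mouse S_2014 against 342 to 2367 CPM in the other 10, skeletal muscle markers reached 3936 CPM in AAV-Notum mouse S_2042, and hepatocyte markers reached 5025 CPM in AAV-GFP mouse S_2013. RNA of AAV-GFP mouse S_2012 was isolated on a later date than that of the other 11. Notum RNA in fat does not check the level in the liver, at which the vector was aimed. It had 1 to 17 reads in AAV-GFP mice, 433 and 560 reads in AAV-Notum mice S_2041 and S_2032, and 8 to 16 reads in the other 4 AAV-Notum mice. Hepatocyte markers summed to 716 CPM in S_2041 and 130 CPM in S_2032, against 19.1 to 47.5 CPM in those 4. Whether the Notum reads came from cells of the fat was not tested.

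Promoter sequences are shown for Peg3, Zim1, Plagl1 and Grb10, the 4 members of smallest p in the comparison described after them, because imprints are methylation of cytosines in CG. Each window is RefSeq sequence of GRCm38.p6 from 250 bases before to 50 bases after a transcript start, 5′ to 3′ on the gene's strand, with every CG in capitals. Of the 10 members, 8 had a window in that table, and H19 and Cdkn1c had none.
Peg3, chr7:6730370-6730669, minus strand: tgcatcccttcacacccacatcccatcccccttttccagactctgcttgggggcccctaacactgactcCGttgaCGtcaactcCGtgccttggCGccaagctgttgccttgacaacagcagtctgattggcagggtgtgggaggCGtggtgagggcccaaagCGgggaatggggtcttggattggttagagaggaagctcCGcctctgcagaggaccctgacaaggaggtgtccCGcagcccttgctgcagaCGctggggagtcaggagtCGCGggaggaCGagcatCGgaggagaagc
Zim1, chr7:6696383-6696682, minus strand: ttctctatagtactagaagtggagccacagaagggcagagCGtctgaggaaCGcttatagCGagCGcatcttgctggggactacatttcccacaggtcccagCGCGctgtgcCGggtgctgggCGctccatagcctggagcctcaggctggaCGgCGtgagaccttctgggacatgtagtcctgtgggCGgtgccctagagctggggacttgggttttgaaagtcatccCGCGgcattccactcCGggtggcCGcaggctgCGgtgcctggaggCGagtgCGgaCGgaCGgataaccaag
Plagl1, chr10:13090582-13090881, plus strand: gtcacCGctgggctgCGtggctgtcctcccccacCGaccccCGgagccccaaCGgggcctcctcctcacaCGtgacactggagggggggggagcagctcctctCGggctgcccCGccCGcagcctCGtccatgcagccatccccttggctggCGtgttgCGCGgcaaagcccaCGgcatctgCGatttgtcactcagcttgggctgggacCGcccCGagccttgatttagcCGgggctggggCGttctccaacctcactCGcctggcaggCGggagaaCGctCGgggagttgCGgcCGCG
Grb10, chr11:12037371-12037670, minus strand: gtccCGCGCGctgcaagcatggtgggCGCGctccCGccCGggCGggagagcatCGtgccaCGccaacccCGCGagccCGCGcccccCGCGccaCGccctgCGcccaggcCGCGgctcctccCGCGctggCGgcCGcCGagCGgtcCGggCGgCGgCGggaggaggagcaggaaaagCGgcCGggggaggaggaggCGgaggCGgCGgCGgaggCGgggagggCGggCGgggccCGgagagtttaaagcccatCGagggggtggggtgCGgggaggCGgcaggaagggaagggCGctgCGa

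Grb10 has 2 windows in the table, and the printed one held 45 CG and the other, chr11:12027922-12028221 on the minus strand, 9. The Plagl1 window held 26, the Zim1 window 20 and the Peg3 window 13, against a median of 7 over 32851 windows of the same length. At least as many CG as in the printed Grb10 window were held by 1.93% of all windows, and at least as many as in its other window by 45.8%, whereas 37.9% held at least as many as the Peg3 window. The letters CTTTGAT, a core that TCF/LEF factors of the Wnt pathway can bind, were on neither strand of any of the 13 windows of the 8 members, and 3.73% of all windows held them. The windows were set by transcript starts and not by known sites of an imprint, so their CG counts do not locate one. Methylation was not measured in these samples.

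Of the 8 members that could be tested, 7 had a lower level in AAV-Notum than in AAV-GFP iWAT, and H19 had a higher one. None of the 8 passed an adjusted p of 0.05 from edgeR's quasi-likelihood test over 15585 genes, where 8 genes (0.0513%) were called lower and 0 higher. At an unadjusted p under 0.05, 7 of 8 members were lower, against 1487 genes or 9.54% of all tested, and 0 of 8 were higher, against 4.64%. The median log2 fold change of the 8 was -0.75, against 0.0077 for all genes tested, and 48.8% of all genes had a log2 fold change below 0. For no member was every AAV-Notum mouse below every AAV-GFP mouse, an order that 0.693% of all genes showed. With DESeq2 in place of edgeR, 3 of 8 members (Peg3, Plagl1 and Zim1) were lower at an adjusted p under 0.05, against 2.17% of 16431 genes. Their adjusted p with DESeq2 was 0.0277, 0.0235 and 0.0494, and over 13 alternatives in edgeR, limma and DESeq2 it ran from 0.0277 to 0.558, from 0.0235 to 0.637 and from 0.0493 to 0.587. Igf2 and Dlk1 had too few reads for the filter, so the 8 are not all members. The members were chosen with earlier results of these data known, and their levels went together across mice. The counts are thus a description, and the 7 lower members are not independent results.

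**Figure D1:**
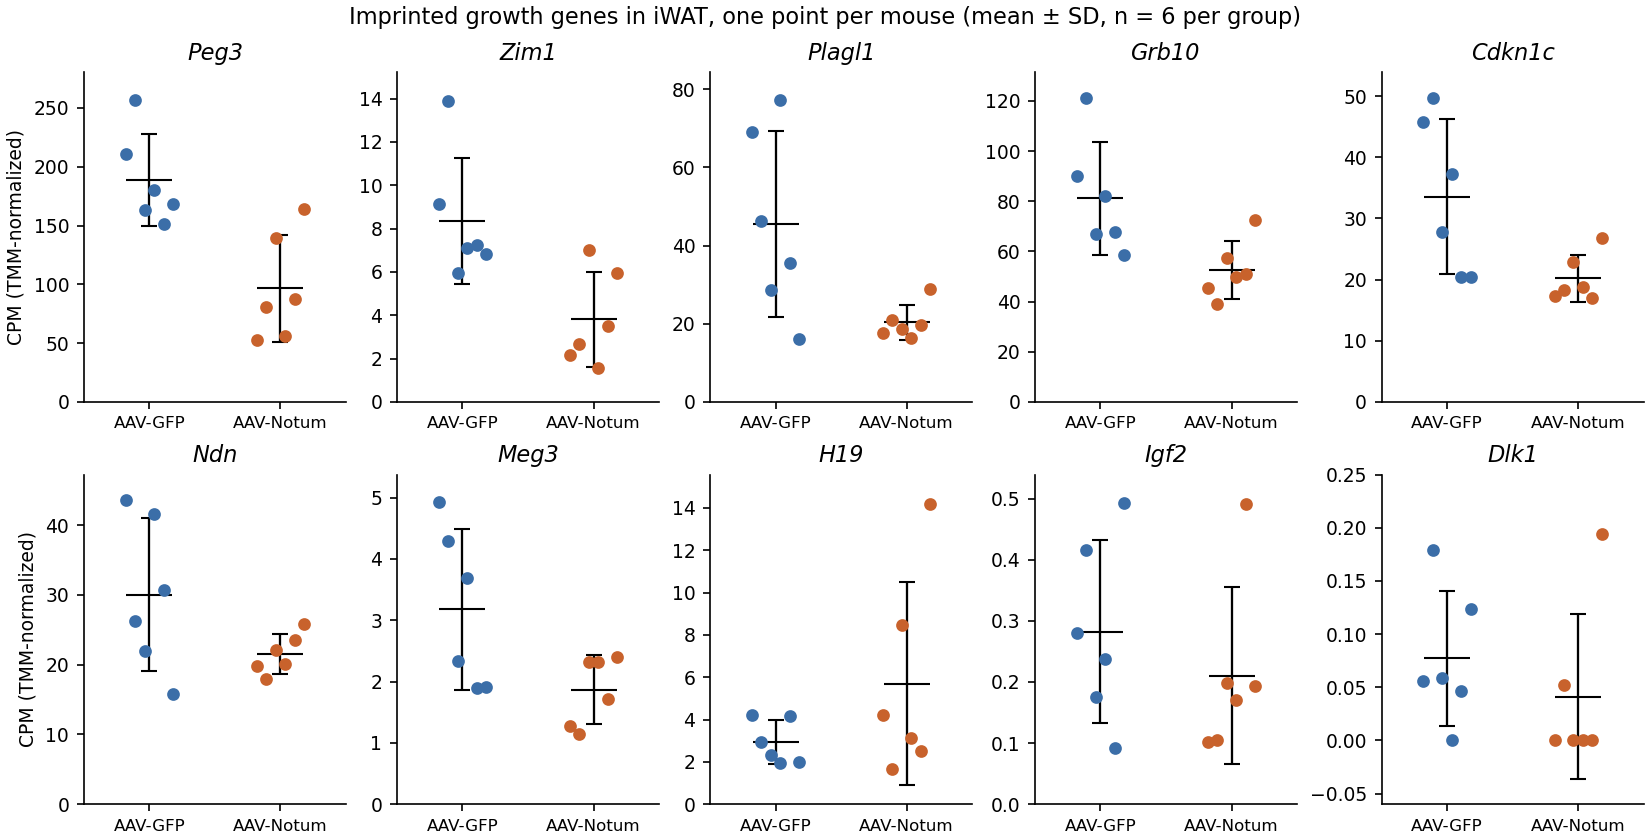
Level of each of the 10 members in CPM (TMM-normalized, linear axis) in AAV-GFP and AAV-Notum mice; each point is a mouse, and the bars give mean ± SD (n = 6 per group). Peg3, Zim1 and Grb10 had 5 of 6 AAV-Notum mice below all AAV-GFP mice, Plagl1 and Ndn had a wide spread among AAV-GFP mice, and H19 was high in AAV-Notum mice S_2042 and S_2033. The share of all genes with 5 of 6 mice in that order is not given here, so the count only describes these members.

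Peg3 and Zim1 are neighbours on chromosome 7 that both encode zinc finger proteins, and Peg3 is active on the paternal and Zim1 on the maternal chromosome. Peg3 (ENSMUSG00000002265, GRCm38 chr7:6703892-6730431, minus strand), a protein tied to growth and maternal behaviour, had a lowest, median and highest level of 151, 174 and 257 CPM in AAV-GFP mice. In AAV-Notum mice its levels were 52.3, 84.1 and 164 CPM. Of 6 AAV-Notum mice, 5 were below all AAV-GFP mice, and the exception was mouse S_2042, above 2 of the AAV-GFP mice. The mean was 188 ± 39.1 CPM in AAV-GFP and 96.7 ± 45.6 CPM in AAV-Notum mice (SD, n = 6 each), 51.3% of the AAV-GFP mean. The log2 fold change of Peg3 was -0.96 (SE 0.28, edgeR adjusted p = 0.170, unadjusted p = 0.00450), and the two-sided exact permutation test gave p = 0.00649. Peg3 was covered by 985 to 4311 reads per mouse, more than any other member.

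Zim1 (ENSMUSG00000002266, chr7:6671269-6696450, minus strand) ends its gene model 7441 bases from that of Peg3. Its lowest, median and highest levels were 5.97, 7.17 and 13.9 CPM in AAV-GFP mice and 1.58, 3.09 and 7.03 CPM in AAV-Notum mice. As for Peg3, 5 of 6 AAV-Notum mice lay below the AAV-GFP range, mouse S_2042 only just (5.96 CPM), and the exception was mouse S_2033. Mean levels were 8.36 ± 2.90 and 3.82 ± 2.19 CPM (SD, n = 6 per group), a log2 fold change of -1.13 (SE 0.36, edgeR adjusted p = 0.214; two-sided exact permutation p = 0.00866). Zim1 rested on 28 to 233 reads per mouse.

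Plagl1 (Zac1, ENSMUSG00000019817, chr10:13060504-13131694, plus strand) encodes a zinc finger transcription factor active on the paternal chromosome that regulates other imprinted genes and can halt the cell cycle. Its lowest, median and highest levels were 16.1, 40.9 and 77.2 CPM in AAV-GFP mice and 16.2, 19.2 and 28.8 CPM in AAV-Notum mice. No AAV-Notum mouse was below all AAV-GFP mice, because AAV-GFP mouse S_2022 was the lowest of all 12, but each of the 6 AAV-Notum values was under the AAV-GFP mean. The mean was 45.5 ± 23.7 CPM in AAV-GFP and 20.4 ± 4.46 CPM in AAV-Notum mice (SD, n = 6 each). Plagl1 had the lowest log2 fold change of the members, -1.16 (SE 0.32, edgeR adjusted p = 0.166; two-sided exact permutation p = 0.0303). Without AAV-GFP mouse S_2022 it was called, at -1.33 with an adjusted p of 0.0408 from edgeR. The adjusted p of Plagl1 over all leave-one-out fits in edgeR ran from 0.0408 to 0.355. The AAV-GFP mice with the highest Plagl1, S_2014 with 77.2 CPM and S_2011 with 69.0 CPM, were those with almost no lymphoid transcripts. Without both, the log2 fold change was -0.64 (unadjusted p = 0.0276, adjusted p = 0.637 from edgeR).

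Ndn (necdin, ENSMUSG00000033585, chr7:62346569-62350262, plus strand), a growth suppressor of the MAGE family from the Prader-Willi region, is also active on the paternal chromosome. Its lowest, median and highest levels were 15.8, 28.5 and 43.6 CPM in AAV-GFP mice and 17.9, 21.1 and 25.8 CPM in AAV-Notum mice. The AAV-Notum values lay inside the AAV-GFP range. Means of 30.0 ± 11.0 and 21.5 ± 2.84 CPM (SD, n = 6 per group) gave a log2 fold change of -0.48 (SE 0.22, edgeR adjusted p = 0.352; two-sided exact permutation p = 0.136). Without mice S_2011 and S_2014 the log2 fold change of Ndn was -0.14 (unadjusted p = 0.431 from edgeR), so its difference rested on those libraries.

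Grb10 and Cdkn1c restrain growth. Grb10 (ENSMUSG00000020176, chr11:11930508-12038683, minus strand) is an adaptor that binds the insulin and IGF1 receptors and dampens their signal, and outside neurons it is active on the maternal chromosome. Its lowest, median and highest levels were 58.5, 74.9 and 121 CPM in AAV-GFP mice and 39.2, 50.4 and 72.6 CPM in AAV-Notum mice. Except for S_2042, each AAV-Notum mouse had less Grb10 than any AAV-GFP mouse. Means of 81.1 ± 22.7 and 52.5 ± 11.6 CPM (SD, n = 6 per group) gave a log2 fold change of -0.63 (SE 0.19, edgeR adjusted p = 0.189; two-sided exact permutation p = 0.0130). Grb10 had the smallest standard error of the 8 members, with at least 748 reads in every mouse.

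Cdkn1c (p57Kip2, ENSMUSG00000037664, chr7:143458339-143461050, minus strand) inhibits cyclin dependent kinases and is active on the maternal chromosome. Its lowest, median and highest levels were 20.4, 32.5 and 49.7 CPM in AAV-GFP mice and 17.0, 18.5 and 26.8 CPM in AAV-Notum mice. Of 6 AAV-Notum mice, 4 were below all AAV-GFP mice, and the exceptions were again S_2042 and S_2033. Means were 33.6 ± 12.6 and 20.2 ± 3.87 CPM (SD, n = 6 per group), a log2 fold change of -0.73 (SE 0.23, edgeR adjusted p = 0.214; two-sided exact permutation p = 0.0281). An antisense gene, Gm44732, shares 625 bases, or 30.7%, of its exons and had 138 reads in all, and the normalized table held 66.3% as many Cdkn1c reads as the raw table. Whether the counting used strand is not given in the sources used here, so the Cdkn1c level is uncertain, although the reads recovered from the normalized table gave the same log2 fold change of -0.73.

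Meg3 and H19 are long noncoding RNAs active on the maternal chromosome, each the partner of a protein-coding gene active on the paternal one. Meg3 (ENSMUSG00000021268, chr12:109541001-109571726, plus strand) had levels of 1.89, 3.02 and 4.93 CPM (lowest, median and highest) in AAV-GFP mice and 1.15, 2.02 and 2.40 CPM in AAV-Notum mice. Of 6 AAV-Notum mice, 3 were below all AAV-GFP mice, and 3 AAV-GFP mice were above all AAV-Notum mice. Meg3 had a log2 fold change of -0.77 (SE 0.30, edgeR adjusted p = 0.290), from means of 3.18 ± 1.31 and 1.86 ± 0.562 CPM (SD, n = 6 per group), and the two-sided exact permutation test gave p = 0.0519. Meg3 rested on 22 to 88 reads per mouse, and the normalized table held 76.2% as many of its reads as the raw table.

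H19 (ENSMUSG00000000031, chr7:142575529-142578143, minus strand), the host transcript of Mir675, was the member with the higher AAV-Notum mean. Its lowest, median and highest levels were 1.97, 2.63 and 4.20 CPM in AAV-GFP mice and 1.68, 3.66 and 14.2 CPM in AAV-Notum mice. Mouse S_2042, at 14.2 CPM, and mouse S_2033, at 8.49 CPM, were above all other mice, and the remaining 4 AAV-Notum mice were within or just outside the AAV-GFP range. The mean was 2.93 ± 1.03 CPM in AAV-GFP and 5.70 ± 4.79 CPM in AAV-Notum mice (SD, n = 6 each), which did not exceed the mice's own spread (log2 fold change 0.95, SE 0.48, edgeR adjusted p = 0.380; two-sided exact permutation p = 0.262). Without mouse S_2042 the log2 fold change of H19 was 0.45. Those mice had the highest summed skeletal muscle markers of the AAV-Notum group, 3936 CPM in S_2042 and 570 CPM in S_2033. Among the AAV-GFP mice, S_2011, with the highest H19 of that group (4.20 CPM), had 563 CPM of the markers, S_2021 had 4.15 CPM of H19 and 22.6 CPM of the markers, and S_2012, with the most of the markers (837 CPM), had 2.92 CPM of H19. Within groups, over all 12 mice, H19 and the muscle score had r = 0.77 (adjusted permutation p = 0.0164), and r = 0.54 without the 2 farthest mice. With the muscle score as a covariate the log2 fold change of H19 was 0.70.

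Igf2 and Dlk1, the paternally active partners of H19 and Meg3, were near the limit of detection. Igf2 (ENSMUSG00000048583, chr7:142650766-142666816, minus strand), a fetal growth factor, had 2 to 8 reads per mouse, 29 in all in AAV-GFP and 21 in AAV-Notum mice. Means of 0.283 ± 0.150 and 0.210 ± 0.145 CPM (SD, n = 6 per group) did not differ by more than the spread (two-sided exact permutation p = 0.366). Its exons share 62.8% of their bases with Gm49394, a gene on the same strand with 0 reads, so the Igf2 count is uncertain. Dlk1 (ENSMUSG00000040856, chr12:109452823-109463336, plus strand) had 0 to 3 reads per mouse, 8 in all in AAV-GFP and 4 in AAV-Notum mice. It had 0 reads in 1 AAV-GFP and 4 AAV-Notum mice, and a count of 0 allows a level of up to 3 reads, or 0.152 to 0.199 CPM in those libraries, so a difference was not detectable at this depth.

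Per kilobase of exon and by the raw table, levels in AAV-GFP mice ranked Cdkn1c at 16.5 ± 6.19 CPM per kilobase (SD, n = 6), Peg3 at 14.1 ± 2.94, Grb10 at 8.92 ± 2.49, Ndn at 8.12 ± 2.97 and Plagl1 at 5.82 ± 3.03 first. Those of H19 at 1.19 ± 0.419, Zim1 at 1.03 ± 0.358, Meg3 at 0.176 ± 0.0722, Igf2 at 0.0494 ± 0.0261 and Dlk1 at 0.0136 ± 0.0112 CPM per kilobase followed. The first place of Cdkn1c rests on the raw table, since the normalized table held 66.3% as many of its reads and 101% as many of those of Peg3. The ranges of mean ± SD overlapped between neighbours among the first 5, between H19 and Zim1 and between Igf2 and Dlk1, but not between Plagl1 and H19, Zim1 and Meg3, or Meg3 and Igf2.

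The spread between AAV-GFP mice was itself wide, with a coefficient of variation from 20.8% for Peg3 to 52.1% for Plagl1 among the 8 tested. Among AAV-Notum mice it ran from 13.2% for Ndn to 84.1% for H19. For Plagl1, Cdkn1c, Ndn, Grb10 and Meg3 it was smaller in AAV-Notum than in AAV-GFP mice, and for Peg3, Zim1 and H19 it was larger. In tissue RNA, fewer cells of an expressing type and less RNA per cell cannot be told apart. The p-values of the group comparison weigh the difference between groups against the spread between these 12 mice.

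Lymphoid transcripts differed widely between mice, and the members' values changed when they were taken into account. All 14 markers of the list were tested, 0 of them with an unadjusted p under 0.05 in edgeR, and their summed level had a median of 787 CPM (7.99 to 1722) in AAV-GFP and 1651 CPM (542 to 2367) in AAV-Notum mice (two-sided exact permutation p = 0.0801). With their mean log2 level as a covariate, edgeR gave 4 of 8 members as lower at an unadjusted p under 0.05 (4.89% of all genes), namely Peg3, Zim1, Plagl1 and Grb10. The log2 fold change was then -0.78 for Peg3, -0.95 for Zim1, -0.43 for Plagl1, -0.41 for Grb10, -0.35 for Cdkn1c, -0.28 for Meg3, -0.05 for Ndn and 1.15 for H19. Without mice S_2011 and S_2014, 5 of 8 members were lower at that threshold (4.95% of all genes), namely the same 4 and Cdkn1c, and the log2 fold changes of Peg3 and Zim1 were -0.94 and -1.15. Thus Peg3 and Zim1 differed about as much without these libraries, whereas Plagl1, Meg3 and Ndn differed by less. With the lymphoid score as a covariate, the log2 fold changes of all 7 lower members became smaller in size. Those of Cdkn1c and Grb10 had been -0.73 and -0.63 without it. With the RNA integrity number in the model, 5 of 8 were lower at an unadjusted p under 0.05 (5.95% of all genes). The lowest RNA integrity number, 5.7, was that of AAV-GFP mouse S_2011, which had almost no lymphoid transcripts.

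Skeletal muscle transcripts, of which 9 of 10 markers were tested, ranged from 9.73 to 837 CPM in AAV-GFP and from 9.84 to 3936 CPM in AAV-Notum mice, with Myf5 of the muscle precursor list at 0 reads and none of that list's 4 genes passing the filter. With the muscle score as a covariate, 3 of 8 members passed an adjusted p of 0.05 in edgeR (0.346% of all genes). They were Peg3 at -0.99 (adjusted p = 0.0283), Grb10 at -0.58 (adjusted p = 0.0483) and Zim1 at -1.17 (adjusted p = 0.0493). The adjusted p of Grb10 over the 13 alternatives in edgeR, limma and DESeq2 ran from 0.0483 to 0.632. Mural markers summed to 325 to 435 CPM in AAV-Notum and 334 to 571 CPM in AAV-GFP mice (two-sided exact permutation p = 0.0476, not adjusted over the 11 marker lists). Of the 6 mural genes, 4 had a log2 fold change below 0 (48.8% of all genes), and edgeR gave 2 of them, Acta2 and Notch3, an unadjusted p under 0.05 (9.54% of all genes). Progenitor markers were at 449 to 828 CPM and 565 to 808 CPM (two-sided exact permutation p = 0.861). The part of other cell types in the members' differences was not tested beyond these fits. Without AAV-GFP mouse S_2012, whose RNA was isolated on the later date and whose Peg3, Zim1, Grb10 and Cdkn1c were the highest of all, the log2 fold changes of these members were -0.85, -0.93, -0.48 and -0.59, each at an unadjusted p of 0.0238 or less in edgeR.

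**Figure D2:**
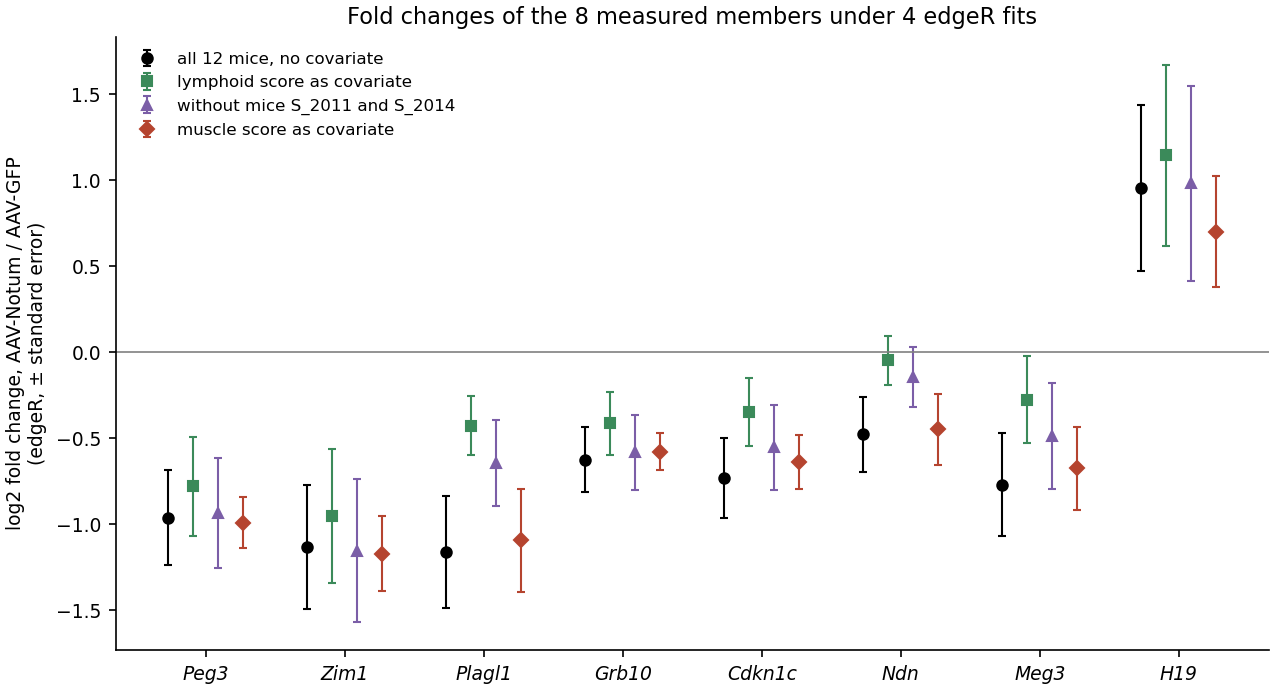
Log2 fold change (AAV-Notum over AAV-GFP, edgeR, ± standard error) of the 8 tested members with all 12 mice, with the lymphoid score as a covariate, without AAV-GFP mice S_2011 and S_2014, and with the skeletal muscle score as a covariate. In these fits Peg3 stays between -0.99 and -0.78, whereas Plagl1 moves from -1.16 to -0.43, Ndn moves from -0.48 to -0.05 and H19 stays above 0.

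Across the 12 mice, after the group means were subtracted, all 28 pairs of the 8 members were positively correlated in log2 CPM, and 8 pairs passed an adjusted p of 0.05 by permutation for both r and rho. Only the pair of neighbours Peg3 and Zim1 had been chosen for its locus; the other pairs, and those with marker lists, were added after values had been seen. Peg3 and Zim1 were the closest pair (Pearson's r = 0.94, permutation p = 4e-05, adjusted p = 0.00112; Spearman's rho = 0.91, adjusted permutation p = 0.00224), and r was 0.92 without the 2 mice farthest from the median of Peg3. Plagl1 and Ndn followed (r = 0.92, adjusted permutation p = 0.00168; rho = 0.77, adjusted p = 0.0288; r = 0.80 without the 2 farthest mice and 0.82 without mice S_2011 and S_2014). Meg3, Cdkn1c and Grb10 were close to each other, with r of 0.88 for Meg3 and Cdkn1c, 0.87 for Cdkn1c and Grb10, and 0.85 for Meg3 and Grb10 (adjusted permutation p of 0.00168, 0.00168 and 0.00246; rho of 0.90, 0.84 and 0.90; r of 0.82, 0.82 and 0.81 without the 2 farthest mice). The other pairs past the threshold were Plagl1 and Cdkn1c (r = 0.75, 0.72 without the 2 farthest mice), Peg3 and Grb10 (r = 0.71, then 0.61) and Grb10 and Zim1 (r = 0.72, then 0.49, so it rested in part on those mice). Their adjusted permutation p was 0.0203, 0.0324 and 0.0324, and their rho 0.73, 0.73 and 0.71. The pairs H19 with Igf2, 72622 bases apart, and Dlk1 with Meg3, 77664 bases apart, could not be computed for lack of reads.

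Between the 8 members and 9 marker lists, 20 of 72 correlations passed an adjusted permutation p of 0.05 for r, and 16 of them also for rho. Grb10 went with endothelial markers (r = 0.95, rho = 0.96, adjusted permutation p = 0.00072 and 0.00144; r = 0.87 without the 2 farthest mice) and inversely with lymphoid markers in the 10 mice that had them (r = -0.97, rho = -0.93, adjusted permutation p = 0.0012 and 0.00706; r = -0.84 without the 2 farthest mice). Other members also passed with these lists. With endothelial markers they were Cdkn1c, Zim1, Peg3 and Meg3, at r of 0.78, 0.76, 0.73 and 0.71 (rho 0.75, 0.71, 0.72 and 0.80, adjusted permutation p for r of 0.0152, 0.0247, 0.0302 and 0.0302; r of 0.78, 0.76, 0.67 and 0.65 without the 2 farthest mice). With lymphoid markers they were Cdkn1c, Meg3 and Plagl1, at r of -0.88, -0.81 and -0.78 (rho -0.61, -0.78 and -0.61, adjusted permutation p for r of 0.0152, 0.0152 and 0.0302; r of -0.33, -0.65 and -0.65 without the 2 farthest mice). The relation of Cdkn1c with lymphoid markers rests on those mice. Zim1 passed with mural markers (r = 0.73, rho = 0.81, adjusted permutation p = 0.0302 and 0.0262; r = 0.73 without the 2 farthest mice). Past the threshold with adipocyte markers were Ndn, Plagl1, Grb10, Meg3 and Cdkn1c, at r of 0.88, 0.85, 0.79, 0.77 and 0.70 (rho 0.87, 0.89, 0.88, 0.73 and 0.76, adjusted permutation p for r of 0.0012, 0.00372, 0.0152, 0.0268 and 0.0460; r of 0.86, 0.76, 0.86, 0.83 and 0.68 without the 2 farthest mice). Past the threshold with skeletal muscle markers were Grb10, Peg3, Zim1, Cdkn1c and H19, at r of 0.86, 0.86, 0.83, 0.79 and 0.77 (rho 0.79, 0.79, 0.78, 0.66 and 0.67, adjusted permutation p for r of 0.00372, 0.00372, 0.00895, 0.0152 and 0.0164; r of 0.77, 0.71, 0.75, 0.73 and 0.54 without the 2 farthest mice). For Cdkn1c and H19 with muscle markers, rho did not pass (adjusted permutation p of 0.0688 and 0.0664), nor did it for Cdkn1c and Plagl1 with lymphoid markers (0.154 for both). Levels in tissue RNA share their library, so such values describe mice that differ together.

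**Figure D3:**
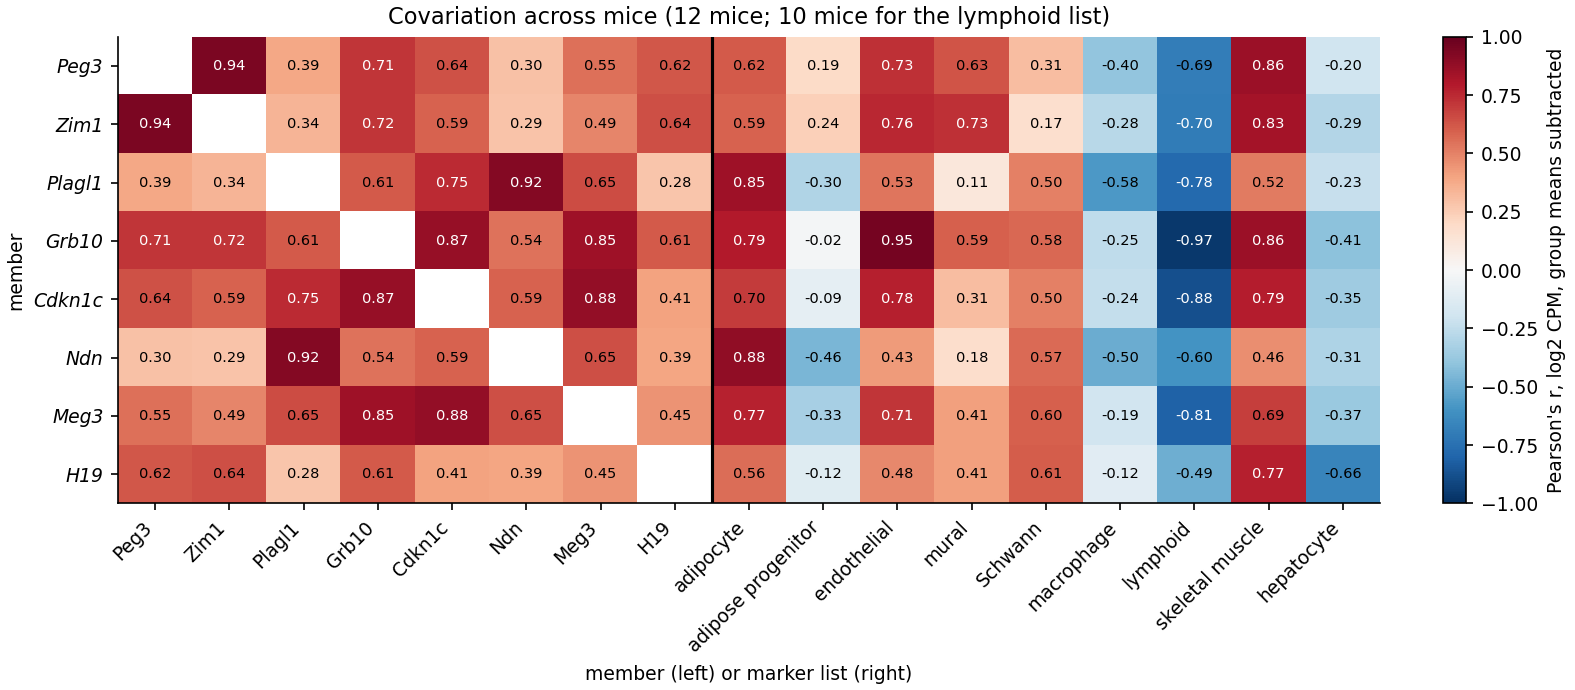
Pearson's r across mice of log2 CPM with group means subtracted, for each of the 8 tested members (vertical axis) with each other member (left of the black line) and with 9 marker lists (right of it); 12 mice, 10 for the lymphoid list, color from -1 to 1. All member pairs are positive, with Peg3 and Zim1 at 0.94, and Grb10 runs from 0.95 with endothelial to -0.97 with lymphoid markers.

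For the 3 members of smallest p with at least 100 reads per mouse on average, the tested genes of most similar profile across the 12 mice, group means subtracted, were found as a description. They were Chmp2b, Ggh and Chadl for Plagl1 (r of 0.98, 0.98 and 0.97), Ppa1, Calr3 and Mettl16 for Peg3 (r of 0.97, 0.96 and 0.96), and Arhgef15, Tmem44 and Ntf3 for Grb10 (r of 0.98, 0.98 and 0.97). Their own log2 fold changes ran from -0.42 for Ggh to 0.19 for Ppa1, smaller in size than those of the members they followed.

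Of 58 other imprinted genes, 41 were tested, 35 with a log2 fold change below 0 (48.8% of all genes) and 6 above. At an unadjusted p under 0.05 in edgeR, 12 of 41 were lower (9.54% of all genes) and 0 higher (4.64%), none passed an adjusted p of 0.05, and their median log2 fold change was -0.22. The 3 of smallest p were Mest at -3.10 (adjusted p = 0.0518), Kcnq1, a potassium channel gene of the Cdkn1c domain, at -0.86 (adjusted p = 0.152), and Airn, the noncoding RNA antisense to Igf2r, at -0.36 (adjusted p = 0.161 from edgeR). The paper's DESeq2 analysis listed Mest and Kcnq1 as lower at an adjusted p under 0.05, so the lack of calls here depends on the method. Airn overlaps Igf2r and Kcnq1 overlaps Kcnq1ot1, so the reads of these genes are uncertain without strand.

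**Figure D4:**
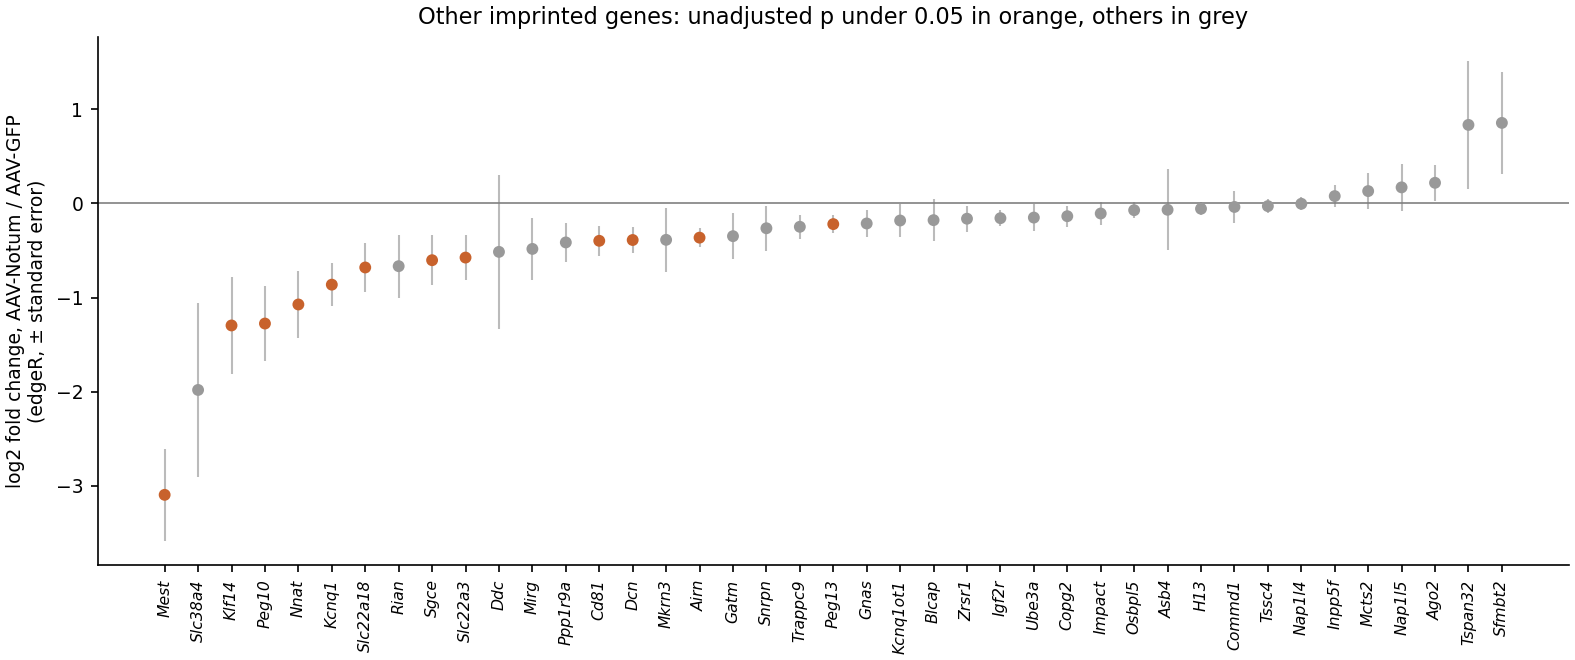
Log2 fold change (AAV-Notum over AAV-GFP, edgeR, ± standard error) of the 41 other imprinted genes tested, in order of the fold change; orange points have an unadjusted p under 0.05. The 12 orange points all lie below 0, from Mest at -3.10 to Peg13 at -0.22.

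Pathway partners of the members were taken from lists. Of the IGF and insulin receptor pathway in which Igf2 and Grb10 act, 10 of 12 genes were tested, 0 passed an adjusted p of 0.05 and 2 of 10 were lower at an unadjusted p under 0.05, a threshold that 9.54% of all genes passed in that direction. Irs2, an insulin receptor substrate, was at -0.88 (adjusted p = 0.130), Insr, the insulin receptor, at -0.47 (adjusted p = 0.270), and Igf2r, the receptor that clears Igf2 and is itself imprinted, at -0.16, all from edgeR. Of 15 Notch receptors, ligands and targets, chosen for Dlk1, 0 passed an adjusted p of 0.05 in edgeR. At an unadjusted p under 0.05, 5 of 15 were lower (9.54% of all genes), led by Notch3 at -0.33, Notch4 at -0.63 and Jag2 at -0.57 on the log2 scale. The paper's DESeq2 analysis listed Notch3, Notch4 and Jag2 as lower at an adjusted p under 0.05. Of 14 relatives and partners of Cdkn1c in the cell cycle, 12 had a log2 fold change above 0 and 2 below (48.8% of all genes), and edgeR gave 4 as higher (4.64% of all genes) and 0 as lower (9.54%) at an unadjusted p under 0.05. The 3 of smallest p were Cdk2 at 0.23, Cdkn2d at 0.40 and Ccne1 at 0.61, each in the direction opposite to that of Cdkn1c, and none of the 14 passed an adjusted p of 0.05. All 14 lymphoid markers also had a log2 fold change above 0, and the part of lymphoid cells in the values of this list was not tested.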

How the data were processed

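RNA from iWAT of 12 mice, 6 AAV-GFP and 6 AAV-Notum, was analysed, grouped by their labels. TruSeq libraries were made by the authors, who sequenced 50 bp single-end reads on a HiSeq4000 and, per the submitters' processing notes, used FastQC, STAR 2.3.1, mm10 and DESeq2. The program that counted the reads, its annotation and its use of strand are not given in the sources used here. The deposited raw table holds counts of reads per gene, not normalized. The authors' second table holds log2 values for 31157 genes, made from counts that were scaled by 1 factor per mouse before 1 was added. Undoing this gave whole reads for 100% of values (within 0.02 reads), and of 31137 genes held by both files, 6725 had the same reads in every mouse.

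Raw counts were fitted with edgeR 4.0.16 in R 4.3.3: filterByExpr (minimum count 10, minimum total 15), TMM, glmQLFit and a two-sided quasi-likelihood test, with Benjamini-Hochberg adjustment over 15585 genes and a threshold of 0.05. CPM are per TMM-normalized library size, and log2 CPM have a prior count of 2. SE, the standard error, was computed as the size of the log2 fold change over the root of F. Exact permutation tests enumerated 924 ways to assign the mice (smallest p 0.00216), on mean log2 CPM. Correlations used 100000 permutations. The fit was tested on simulated counts. Positions are those of GENCODE vM21 (GRCm38).

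The members and lists were chosen with earlier results of these data known. The genes named were all members, Notum, the 3 genes of smallest p of each list, and the 3 genes most like each of the 3 members of smallest p with a mean of at least 100 reads. Marker lists with fewer than 3 tested genes entered no correlation. Alternatives were DESeq2 1.42.0, limma-voom (limma 3.58.1), RLE size factors, other filters, a robust fit, covariates, the second table and its recovered reads, and mice left out. Total counts per mouse of 14711113 to 21618860 gave Dlk1, Igf2, Meg3 and Zim1 few reads, so these carry more counting error. Floors cover counting error only. Peg13 and the mice left out together were named with their values known.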

Additional observations from a re-analysis of the deposited data

Results flagged for a closer look

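In 3 of 40 groups of 6 mice examined, 1 mouse lay apart from the other 5 by more of the group's range than Dixon's 95% limit, which chance passes in about 1 of 20 groups. The mean log2 CPM of macrophage markers was 5.38 in AAV-GFP mouse S_2014 and 6.39 to 6.69 in the other AAV-GFP mice, a gap of 0.768 of the range, in the library that also had almost no lymphoid transcripts. Igf2 was at 0.492 CPM (8 reads) in AAV-Notum mouse S_2041 and at 0.102 to 0.199 CPM in the other AAV-Notum mice, a gap of 0.751 of the range. Dlk1 was at 0.194 CPM (3 reads) in AAV-Notum mouse S_2042 and at 0 to 0.0524 CPM in the others, a gap of 0.730 of the range. Both genes lie at counts where a few reads set the order of the mice.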

How the results depend on the processing

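Each tested member kept the direction of its log2 fold change under all 13 alternatives and with each mouse left out. The median of the 8 ran from -0.80 to -0.38, and from -0.86 to -0.61 with 1 mouse left out. Members lower at an adjusted p under 0.05 numbered 3 with DESeq2 and 3 with the muscle score as a covariate, and 0 to 1 with 1 mouse left out (Plagl1 without AAV-GFP mouse S_2022, when 0.93% of all genes passed). Members lower at an unadjusted p under 0.05 numbered 4 with the lymphoid score as a covariate (4.89% of all genes), and 5 to 7 with 1 mouse left out (6.67% to 13.6% of all genes). Members higher at that threshold numbered 1 (H19) with the RNA integrity number in the model (2.98% of all genes), 1 with the lymphoid score (4.1%) and 1 with DESeq2 (5.51%), and 0 to 1 with 1 mouse left out (1 without AAV-Notum mouse S_2032 or S_2041, 3.78% and 4.28% of all genes). Members with every AAV-Notum mouse below every AAV-GFP mouse numbered 0 to 2 with 1 mouse left out, 1 without AAV-Notum mouse S_2033 (0.853% of all genes) and 2 without S_2042 (1.6%). The cause of these changes was not tested. Genes called lower over the whole table numbered 8, but 357 with DESeq2, 54 with the muscle score, 146 without AAV-GFP mouse S_2022 and 1 without AAV-Notum mouse S_2033. No paired analysis was possible because the groups share no replicate numbers. Depth limits Igf2 and Dlk1, and few reads limit Meg3, H19 and Zim1.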
